A study of Mus musculus with 20 samples.

Results

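Protocadherins were measured here as the 69 genes, of 32285 in the feature tables, whose symbol begins with Pcdh. Of these, 57 belong to the clustered families, with 14 Pcdha, 22 Pcdhb and 21 Pcdhg genes, and 12 are non-clustered. The data are single-nucleus RNA-seq libraries (10x 3′ chemistry) of the hippocampus of 20 male mice aged 4.5 to 5.5 months, carrying the APPSwe/PS1ΔE9 transgenes (fAD, the APP/PS1 model of familial Alzheimer's disease) or wild-type littermates (WT). The groups were WT-Awake (n = 6), fAD-Awake (n = 3), WT-GA (n = 3), fAD-GA (n = 4), WT-Keta (n = 2) and fAD-Keta (n = 2). The series' design text and the study give other numbers of mice for the awake and isoflurane groups, and the groups here follow the label of each mouse. GA mice inhaled isoflurane, started at 5% and lowered to 1.5%, and Keta mice received ketamine (150 mg/kg) with xylazine (12 mg/kg). Both kinds of mice were killed after 3 h of anesthesia, and each library came from 1 mouse. The question asked of the genes was where in the hippocampus they are expressed and whether their levels differed with anesthesia or genotype.

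Protocadherins are cell-surface adhesion proteins with extracellular cadherin repeats. In the clustered families each variable exon has its own promoter, and a neuron chooses a small set of these promoters through CTCF, cohesin and DNA methylation, which gives its surface an identity used for self-avoidance of dendrites and for synapse formation. The Pcdha and Pcdhg variable exons are spliced to constant exons shared within the family, whereas the Pcdhb genes are single-exon genes. The non-clustered genes lie outside these tandem arrays, on several chromosomes, and are known for cell sorting, axon growth and synapse remodelling.

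The 250 bases before the RefSeq start site are shown for 3 non-clustered members that the dentate granule nuclei expressed above the mean of the other classes. They were read from RefSeq on GRCm38.p6, 5′ to 3′ in the direction of the gene, and capitals mark a GC box (GGGCGG or its complement CCGCCC).
Pcdh19 (chrX:133688994-133689243, minus strand): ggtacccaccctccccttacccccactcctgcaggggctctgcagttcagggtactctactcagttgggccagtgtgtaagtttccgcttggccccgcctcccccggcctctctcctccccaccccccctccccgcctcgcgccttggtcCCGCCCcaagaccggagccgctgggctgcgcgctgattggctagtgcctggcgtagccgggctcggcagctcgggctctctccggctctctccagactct
Pcdh17 (chr14:84443313-84443562, plus strand): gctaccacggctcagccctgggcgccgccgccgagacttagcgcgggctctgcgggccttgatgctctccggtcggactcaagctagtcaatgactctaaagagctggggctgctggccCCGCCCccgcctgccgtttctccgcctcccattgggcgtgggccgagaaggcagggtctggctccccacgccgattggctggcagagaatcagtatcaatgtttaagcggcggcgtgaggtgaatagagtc
Pcdh8 (chr14:79771313-79771562, minus strand): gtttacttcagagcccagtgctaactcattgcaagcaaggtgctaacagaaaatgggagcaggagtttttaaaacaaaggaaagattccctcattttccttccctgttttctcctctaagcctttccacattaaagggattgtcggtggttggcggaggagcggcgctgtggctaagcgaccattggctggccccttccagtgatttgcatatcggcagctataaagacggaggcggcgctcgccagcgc
The GC content of these windows was 69.2%, 64.8% and 51.2%, and the GC box was present in the first 2. On both strands, GGGCGG occurred in 32.74% of 32851 promoters of the same length, the cAMP response element TGACGTCA in 1.55%, its half-site TGACG (which the full element contains) in 17.77%, the AP-1 site TGANTCA in 6.75% and the E-box CACGTG in 6.02%. Among the 10 windows listed for non-clustered Pcdh genes, which include 2 start sites of Pcdh9, GGGCGG was present in 4, TGACG in 3 and each of the other 3 motifs in 0.

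The clustered genes lie on the plus strand of mouse chromosome 18 (mm10), with Pcdha at 36930184 to 37187661, Pcdhb at 37264938 to 37524479 and Pcdhg at 37661793 to 37841873. Pcdha genes shared 37.96% to 54.94% of their exon bases with other Pcdh genes and Pcdhg genes 27.78% to 66.79%. A 3′ read in a constant exon therefore cannot be given to 1 of them, and the split within these 2 families and their totals are uncertain. In Pcdhb this share was at most 9.67%, and the non-clustered genes shared no exon bases with another Pcdh gene. The non-clustered Pcdh1 (38185914 to 38212053) and Pcdh12 (38267089 to 38284402) lie on the minus strand of the same chromosome, beyond the end of Pcdhg. The others are Pcdh10 and Pcdh18 on chromosome 3, Pcdh7 on chromosome 5, Pcdh15 on chromosome 10, Pcdh8, Pcdh17, Pcdh20 and Pcdh9 on chromosome 14, and Pcdh11x and Pcdh19 on chromosome X.

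The nuclei, 160777 in all, were assigned to classes by 81 marker genes, none of them a Pcdh gene, and UMIs were summed per mouse and class. Libraries held 4743 to 10877 nuclei and 9243992 to 25394891 UMIs. Of the nuclei, 72.304% received a class, 18.783% did not, and 8.913% carried the markers of 2 classes and were set aside. The mural/fibroblast-like class was led by fibroblast genes (Slc6a13 at 446 and Col1a2 at 2253 CPM), whereas none (0) of its 4 mural markers was highest there. Of these markers Rgs5, at 41.4 CPM, stood below the mean of the other classes (202 CPM). Vtn (962 against 168 CPM), Atp13a5 (413 against 53.5 CPM) and Pdgfrb (190 against 29.8 CPM) stood above that mean. In the endothelial-like class Rgs5 stood at 2198 CPM, so endothelial and mural nuclei were not told apart there. In 2.064% of the barcodes the same barcode was in more than 1 library. Mice 1 to 4, which make up 1 mouse of each awake and isoflurane group, stood apart in the share of mitochondrial UMIs, 0.939% to 1.78% against 0.0353% to 0.336% in the other mice. Arc, an activity-induced gene, ranged in all nuclei from 3.86 to 16.6 CPM in awake mice, from 1.04 to 2.63 CPM under isoflurane and from 0.569 to 2.08 CPM under ketamine-xylazine, with no overlap of either anesthetized state with the awake mice. Prnp, whose promoter drives the transgenes, did not separate the genotype labels (log2 difference of fAD from WT 1.46 ± 0.36 SE, unadjusted p = 0.000652, adjusted p = 1.0 by edgeR). It stood at 46.4 to 133 CPM in 10 of the 11 libraries labelled WT and at 198 to 417 CPM in 6 of the 9 labelled fAD. The libraries labelled fAD of mice 11, 17 and 20, at 67.6, 76.4 and 102 CPM, lay within the range of those 10 WT libraries, and the library labelled WT-Awake of mouse 14, at 199 CPM, lay within that of those 6 fAD libraries. The genotype comparisons rest on the labels and are also given without these 4 mice, a choice made after seeing the data.

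Across the whole hippocampus the non-clustered genes gave 97.5% of the 1515799 Pcdh UMIs, and Pcdh9 alone gave 1160451. The clustered families gave few counted UMIs, 5689 in Pcdha, 17163 in Pcdhb and 14998 in Pcdhg. Reads shared by several Pcdha or Pcdhg genes may be missing from these totals, so the levels of the families do not compare on equal terms. Per kilobase of exon, the median level was 0.192 CPM for Pcdha, 0.322 for Pcdhb, 0.351 for Pcdhg and 4.67 for the non-clustered genes. In these levels CPM is the count scaled by the TMM-scaled library total. Intronic reads were counted, so long genes such as Pcdh9 (877 kb) and Pcdh15 (1550 kb) collect UMIs that exon length does not account for, and per kilobase of gene span Pcdh9 stood at 4.46 CPM and Pcdh15 at 0.184 CPM. The lowest non-clustered members were Pcdh18, with 271 UMIs, and Pcdh12, an endothelial protocadherin, with 40 UMIs.

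Among the Pcdha genes the most abundant in UMIs was 1 of the 2 identifiers named Pcdha11 (ENSMUSG00000102206, 1446 UMIs), followed by Pcdha5 (779) and Pcdha1 (611). Pcdhb14 (2749 UMIs), Pcdhb17 (2128) and Pcdhb16 (1786) led the Pcdhb family. Pcdhga12 (2845), Pcdhgc5 (1466) and Pcdhgc4 (1442) led the Pcdhg family. Pcdhgc5 and Pcdhgc4 are C-type genes, which lie at the 3′ end of the Pcdhg cluster and are known to escape the random choice of promoters. At the other end were Pcdhb1 with 6 UMIs, Pcdhac1 with 72, Pcdha3 with 94 and Pcdhga4 with 101, which with Pcdh12 were the 5 members too low to be tested in the sum of all nuclei.

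**Figure D1:**
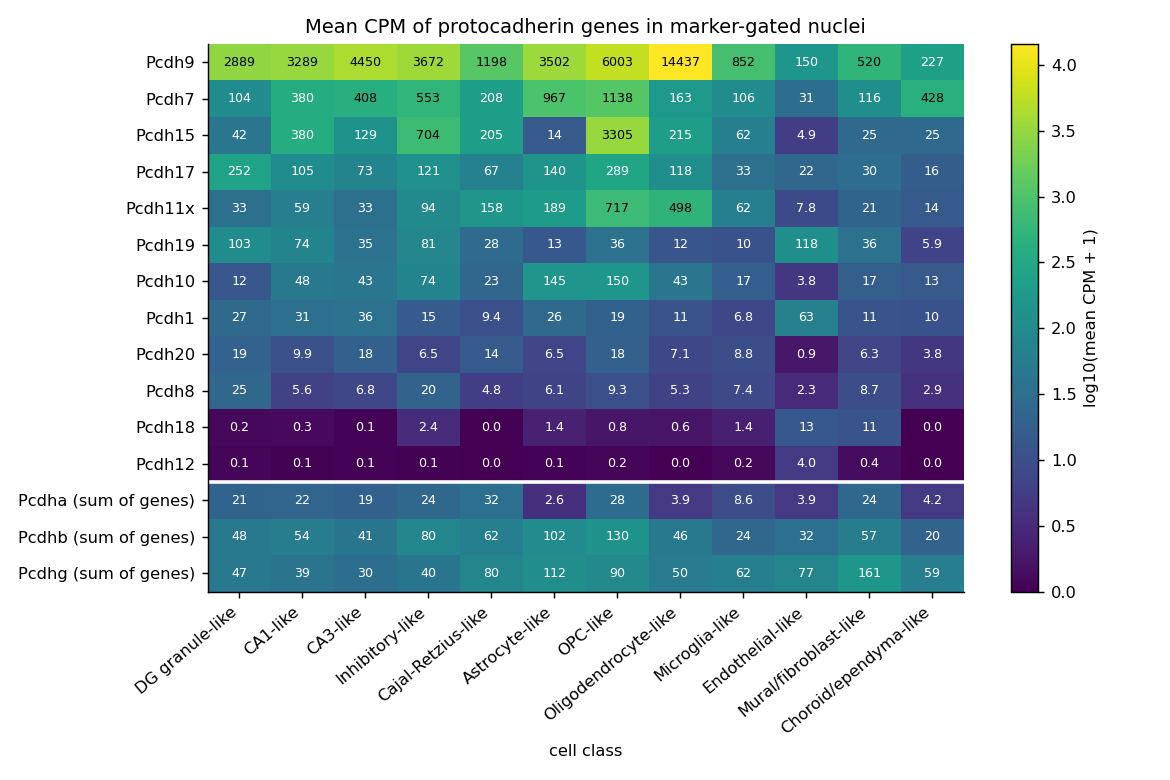
Mean CPM over mice (numbers in the cells; colour is log10 of mean CPM + 1) of the 12 non-clustered genes and of the summed Pcdha, Pcdhb and Pcdhg genes in 12 marker-gated classes. Pcdh9 was highest in oligodendrocyte-like nuclei at 14437 CPM and Pcdh15 in OPC-like nuclei at 3305 CPM, while the Pcdha sum stood at 18.9 to 23.8 CPM in dentate, CA1, CA3 and inhibitory classes and at 2.58 CPM in astrocyte-like nuclei.

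The non-clustered genes differed in their order of cell classes, and several shared their highest class. By mean level among the 8 classes held by at least 18 mice, 5 were highest in OPC-like and 3 in dentate granule-like nuclei. The CPM values that follow compare 1 gene across classes, as mean ± SD over the mice with at least 20 nuclei of the class. Pcdh9, a large homophilic adhesion gene, was highest in oligodendrocyte-like nuclei, at 14437 ± 3203 CPM (range 8911 to 20700). OPC-like nuclei (oligodendrocyte precursors) followed at 6003 CPM (4966 to 6921), a range below that of the oligodendrocytes. CA3-like nuclei stood at 4450 CPM, overlapping the precursors, and microglia-like nuclei were lowest of the 8 classes held by at least 18 mice, at 852 CPM.

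Pcdh15, which hair cells use in the tip link of their stereocilia, had the sharpest profile. It stood at 3305 ± 369 CPM in OPC-like nuclei (2646 to 4027), above every other class without overlap, at 704 CPM in inhibitory-like nuclei, at 380 CPM in CA1-like nuclei and at 14.2 CPM in astrocyte-like nuclei. In the fit over classes it was higher in OPC-like nuclei than in the mean of the other classes by 4.75 on the log2 scale and differed by -4.16 in astrocyte-like nuclei.

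Pcdh7 and Pcdh10 were both highest in OPC-like and astrocyte-like nuclei among the 8 classes held by at least 18 mice. Pcdh7, a large protocadherin that binds the phosphatase regulator SET, stood at 1138 ± 188 CPM in OPC-like, 967 ± 201 in astrocyte-like and 104 in dentate granule-like nuclei. For Pcdh10, which has a role in axon growth and synapse elimination, the values were 149.8 ± 34.1 CPM, 145 ± 42 CPM and 12.4 CPM in the same 3 classes. For both genes the ranges of OPC-like and astrocyte-like nuclei overlapped. These 2 classes come from the same mice and were not tested against each other. Against the mean of the other classes Pcdh7 and Pcdh10 differed by -2.65 and -2.36 on the log2 scale in microglia-like and by 0.89 and 0.81 in inhibitory-like nuclei. In oligodendrocyte-like nuclei Pcdh7 differed by -1.19, and the value of Pcdh10, -0.19, did not pass the test (adjusted p = 0.0954 by edgeR).

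Pcdh11x, an X-linked member, followed the oligodendrocyte lineage, with 717 ± 107 CPM in OPC-like nuclei (577 to 951), 498 ± 287 in oligodendrocyte-like nuclei (165 to 1373) and 189 ± 44 in astrocyte-like nuclei. The spread over mice in oligodendrocyte-like nuclei exceeded that in precursors, and the treatment comparison below returns to it. Pcdh17, known for presynaptic assembly, was high in OPC-like (289 ± 73 CPM) and dentate granule-like nuclei (252 ± 33 CPM), whose ranges overlapped, and lower in the rest, with 140.5 CPM in astrocyte-like nuclei. The dentate range of Pcdh17, 200.3 to 344 CPM, lay above the astrocyte range of 80.0 to 186 CPM.

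Pcdh19, the X-linked gene mutated in a female-limited epilepsy, had its highest means in endothelial-like and dentate granule-like nuclei. It stood at 103 ± 35 CPM in dentate granule-like, 81.4 ± 22.8 in inhibitory-like, 74.5 ± 19.2 in CA1-like and 13.2 CPM in astrocyte-like nuclei, and at 118 ± 47 CPM in endothelial-like nuclei of 9 mice. The ranges of the 3 neuronal classes and of the endothelial-like nuclei overlapped. Pcdh20 stood at 19.5 CPM in dentate granule-like and 17.6 in CA3-like nuclei, and Pcdh1, an epithelial and neuronal member, at 36.4 CPM in CA3-like and 62.7 in endothelial-like nuclei.

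Pcdh8 (also called arcadlin, a product of neuronal activity that acts on cadherin at synapses) was highest in dentate granule-like nuclei, at 24.8 ± 23.9 CPM, and varied widely between mice, from 4.20 to 78.9 CPM. Over all nuclei it ranged from 3.70 to 33.8 CPM in awake, from 3.05 to 29.6 CPM in isoflurane and from 2.35 to 9.85 CPM in ketamine-xylazine mice. The 4 mice with the raised mitochondrial share, mice 1 to 4, stood between 18.2 and 33.8 CPM, at or near the top in their states. Pcdh18 and Pcdh12 stood at 12.7 and 4.04 CPM in endothelial-like nuclei, and Pcdh18 at 11.0 CPM in the mural/fibroblast-like class.

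The clustered families differed in their order of classes by mean level. Summed Pcdha levels were 31.6 ± 30.2 CPM in Cajal-Retzius-like nuclei of 17 mice (lowest mouse 0), 28.2 CPM in OPC-like, 24.3 in mural/fibroblast-like, 23.8 in inhibitory-like, 21.8 in CA1-like, 20.5 in dentate granule-like and 18.9 in CA3-like nuclei. They were 8.61 ± 11.4 CPM in microglia-like, 3.88 ± 3.05 in oligodendrocyte-like and 2.58 ± 2.16 in astrocyte-like nuclei. In these classes only 15, 51 and 50 nuclei held a Pcdha UMI, and the ranges overlapped, with the lowest mouse at 0 in each. Summed Pcdhb was 130.3 CPM in OPC-like, 102 in astrocyte-like, 79.9 in inhibitory-like, 62.0 in Cajal-Retzius-like, 54.2 in CA1-like, 46.4 in oligodendrocyte-like and 24.4 in microglia-like nuclei. Summed Pcdhg was 161 CPM in the mural/fibroblast-like class, 112 in astrocyte-like, 89.5 in OPC-like and 80.1 in Cajal-Retzius-like nuclei. In microglia-like nuclei it was 61.5 CPM, in dentate granule-like 46.5, in CA1-like 38.6 and in CA3-like 30.3.

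Pcdhgc3, a C-type gene, stood at 11.5 ± 6.2 CPM in astrocyte-like and 10.0 CPM in OPC-like nuclei and below 1 CPM in dentate granule-like, CA1-like and CA3-like nuclei. Pcdhb14, the most abundant Pcdhb gene, stood at 26.0 ± 10.2 CPM in astrocyte-like, 15.5 in OPC-like and 8.24 in CA1-like nuclei. Pcdhgc5, also C-type, was 9.46 CPM in astrocyte-like, 5.69 in dentate granule-like and 3.95 in CA1-like nuclei, and it did not pass the filter for the class fit.

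The class fit (edgeR with the mouse as a block, each class against the mean of the other 7) tested 13298 genes, of which 17 were Pcdh genes. These were 10 non-clustered genes, Pcdhb14, Pcdhb16, Pcdhb17, Pcdhb19, Pcdhga12, Pcdhgc3 and Pcdhgc4. All 17 differed in at least 1 class. Of all genes tested, 77.0% were called in dentate granule-like, 79.2% in CA1-like, 78.4% in CA3-like, 69.7% in inhibitory-like, 78.1% in astrocyte-like, 77.7% in oligodendrocyte-like, 55.2% in OPC-like and 66.2% in microglia-like nuclei. A gene passes the filter through a class where it is high, so this count and the directions given next say little about the members. The genes tested held no Pcdha gene and only 7 of the 57 clustered genes. In OPC-like nuclei 12 were higher and 0 lower, where 23.8% and 31.4% of all genes were called higher and lower. In microglia-like nuclei 0 were higher and 16 lower, against 26.5% and 39.7% of all genes. Most Pcdhg genes were not in this fit. Summed Pcdhg was 61.5 CPM in microglia-like and 46.5 CPM in dentate granule-like nuclei, with overlapping ranges. Astrocyte-like nuclei had 12 higher and 4 lower, with all 7 clustered genes higher, against 41.2% and 36.9% of all genes. Dentate granule-like nuclei had 6 higher and 8 lower, where 38.8% and 38.2% of all genes were called, led by Pcdh19 (log2 difference 2.01), Pcdh8 (1.74) and Pcdh17 (1.44), while Pcdh10 differed by -2.12 and Pcdh15 by -2.10.

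Promoter choice would make the UMIs of a nucleus come from the same gene more often than UMIs of different nuclei do. A mix of cell types within a class could give the same pattern. In CA1-like nuclei 16.1% carried at least 1 Pcdhb UMI, and of the 858 pairs of Pcdhb UMIs within a nucleus 118 were of the same gene, or 13.8%, against 8.70% of pairs drawn between nuclei of the same mouse and class. The share within nuclei was the higher in 15 of the 18 mice with at least 10 pairs. In dentate granule-like nuclei the 2 shares were 14.9% and 8.19%, and in inhibitory-like nuclei 14.0% and 8.56%. For Pcdhg they were 18.3% and 9.57% in CA1-like and 17.7% and 9.53% in dentate granule-like nuclei, and for Pcdha 30.3% and 13.3% in CA1-like nuclei, on 122 pairs. Astrocyte-like nuclei had the same order for Pcdhb, 20.6% against 11.4%. Among mice with at least 10 pairs, the Pcdhb share within nuclei was the higher in 12 of 16 in dentate granule-like, 11 of 14 in CA3-like, 10 of 11 in inhibitory-like and 11 of 16 in astrocyte-like nuclei. For Pcdhg it was the higher in 11 of 13 mice in CA1-like, 11 of 15 in dentate granule-like, 8 of 13 in astrocyte-like and 3 of 6 in CA3-like nuclei, and for Pcdha in 3 of 3 in CA1-like nuclei. These shares are descriptions without a test, and few nuclei held 2 UMIs (554 of 21578 CA1-like nuclei for Pcdhb). The parts of repeated counting of 1 molecule and of mixed cell types within a class were not tested.

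**Figure D2:**
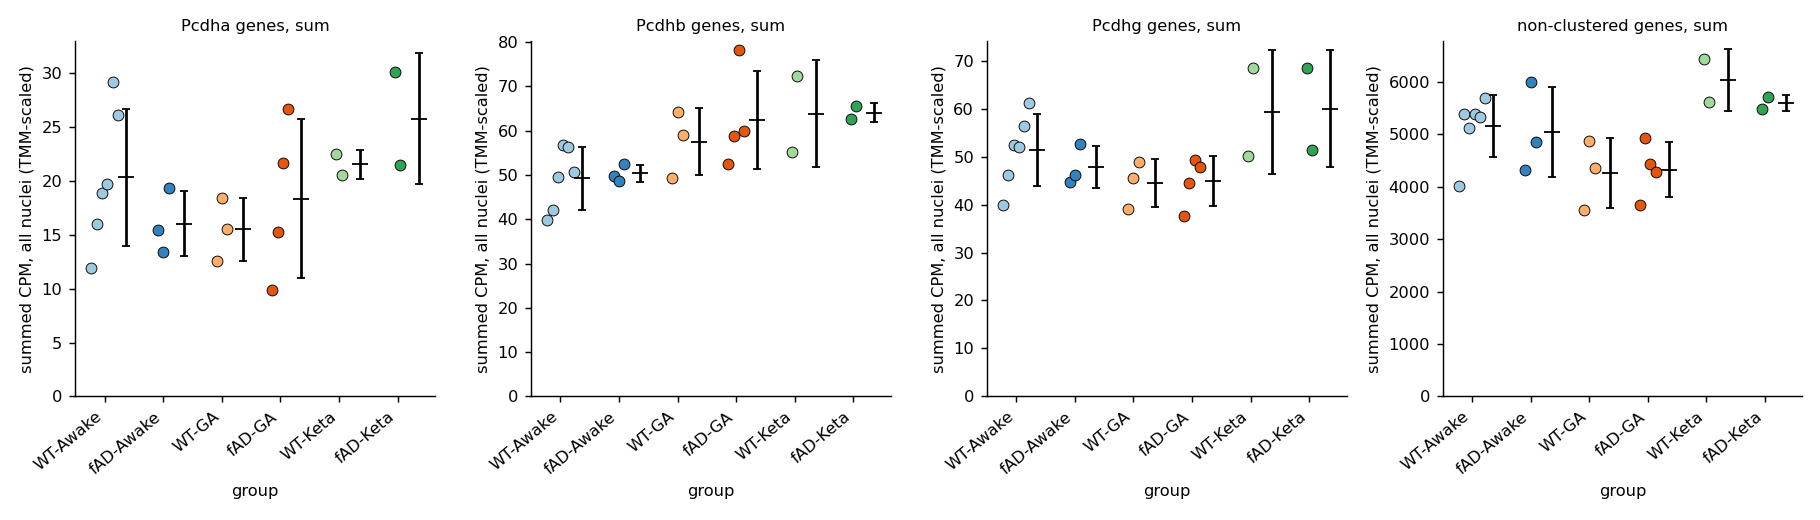
Summed CPM (TMM-scaled) of the Pcdha, Pcdhb, Pcdhg and non-clustered genes in all nuclei of each mouse, by group. Points are mice and bars are the mean ± SD; the non-clustered sum spanned 3548 to 4929 CPM in isoflurane mice and 4012 to 5992 CPM in awake mice, and the Pcdhb sum 49.4 to 78.3 and 39.9 to 56.9 CPM.

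Summed over all nuclei, with TMM-scaled library totals, the clustered genes stood at 119 ± 16 CPM in the 9 awake mice (range 91.8 to 142), 122 ± 18 in the 7 isoflurane mice (99.9 to 149) and 147 ± 17 in the 4 ketamine-xylazine mice (128 to 161). The ranges of the 3 states overlapped. The non-clustered sum was 5119 ± 636 CPM in awake, 4295 ± 537 in isoflurane and 5807 ± 433 in ketamine-xylazine mice (5478 to 6443), and the isoflurane range overlapped the awake range but not the ketamine-xylazine range. Most of this sum was Pcdh9, at 3982 ± 552, 3389 ± 489 and 4679 ± 439 CPM in the 3 states. Summed Pcdhb was 49.6 ± 5.7 CPM in awake mice and 60.3 ± 9.3 under isoflurane and 63.9 ± 7.1 under ketamine-xylazine, and the awake range (39.9 to 56.9) overlapped the isoflurane (49.4 to 78.3) and ketamine-xylazine ranges (55.2 to 72.3). In the sum of all nuclei fewer nuclei of a type and less RNA per nucleus cannot be told apart.

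Under isoflurane, 3 Pcdh genes, all non-clustered, changed in at least 1 of the 11 sums tested. Of all genes 15.5% were called in at least 1 sum. The calls were in class sums, and a class was not tested against the whole tissue. Pcdh7 and Pcdh19 fell in dentate granule-like nuclei, and Pcdh11x fell in astrocyte-like and rose in oligodendrocyte-like nuclei. In the sum of all nuclei 0 of the 64 members tested changed by edgeR (5.83% of all genes tested were called), DESeq2 called none of them either (0, where it called 8.88% of all genes), and 7 had an unadjusted p under 0.05, as had 19.8% of all genes. In dentate granule-like nuclei 2 of 39 changed (2.69% of all genes called), in astrocyte-like nuclei 1 of 23 (7.35%) and in oligodendrocyte-like nuclei 1 of 8 (6.37%).

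Pcdh11x (ENSMUSG00000034755, chrX:120290259-120910619, plus strand, mm10) in oligodendrocyte-like nuclei stood at 268, 299 and 427 CPM (lowest, median and highest) in the 9 awake mice and at 174, 779 and 1339 CPM in the 7 isoflurane mice. One isoflurane mouse, mouse 3 of WT-GA, lay below every awake mouse, and the other 6, from 505 to 1339 CPM, lay above all of them. The rise was 1.25 ± 0.27 (SE) on the log2 scale (adjusted p = 0.00712 by edgeR) and it was called without any 1 of the 20 mice (highest adjusted p 0.0392). Within the 4 runs of consecutive mouse numbers that held both states, the isoflurane mean was the higher in each, by 0.34 to 1.98 on the log2 scale. The run 10 to 13 held only 1 isoflurane mouse and the run 18 to 20 only 1 awake mouse. In the 4 ketamine-xylazine mice Pcdh11x was 434, 455, 460 and 557 CPM, all above the awake mice, with a log2 difference of 0.59 ± 0.31 that missed the threshold (adjusted p = 0.259). The summed oligodendrocyte precursor markers in these nuclei were 59.3 to 214 CPM in awake and 68.4 to 129 CPM in isoflurane mice, and the oligodendrocyte markers had medians of 18864 and 15732 CPM. Their part in the Pcdh11x result was not tested.

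In astrocyte-like nuclei Pcdh11x moved the other way. It stood at 148, 209 and 311 CPM in awake mice and at 121, 146 and 169 CPM in isoflurane mice. The ranges overlapped, through awake mice 1 and 2, and the gene fell by 0.49 ± 0.14 on the log2 scale (adjusted p = 0.0348 by edgeR). Ketamine-xylazine mice stood at 206 to 231 CPM, within the awake range. In OPC-like nuclei, where the level was highest, Pcdh11x was 634 to 969 CPM in awake and 615 to 797 CPM in isoflurane mice (log2 difference -0.24, adjusted p = 0.454). The ratio of oligodendrocyte-like to astrocyte-like CPM, on the log2 scale with 1 added to each level, averaged 0.60 ± 0.49 in awake and 2.14 ± 0.95 in isoflurane mice, a difference of 1.55 over 9 and 7 mice, which is given without a test since the ratio was chosen after both values had been seen. The call in astrocyte-like nuclei was lost without mouse 3, 4, 10, 16, 17, 18, 20 or 29 (adjusted p up to 0.104). It was lost too with the number runs as a block (0.0628), in awake and isoflurane mice alone (0.0560) and with at least 1000 UMIs per nucleus (0.0703).

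**Figure D3:**
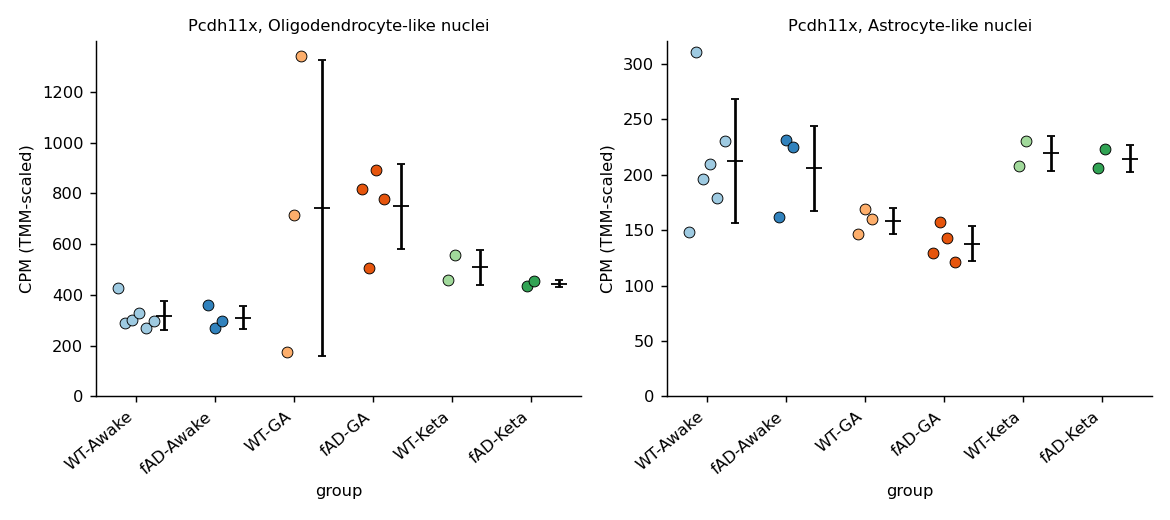
Pcdh11x in oligodendrocyte-like and astrocyte-like nuclei, in CPM (TMM-scaled), 1 point per mouse, by group, with the mean ± SD. In oligodendrocyte-like nuclei 6 of the 7 isoflurane mice stood at 505 to 1339 CPM, above the awake maximum of 427 CPM, and WT-GA mouse 3 stood at 174 CPM.

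Pcdh7 (ENSMUSG00000029108, chr5:57717967-58133230, plus strand) in dentate granule-like nuclei stood at 98.2, 135 and 236 CPM in awake mice and at 35.2, 76.5 and 90.5 CPM in isoflurane mice. No isoflurane mouse reached the lowest awake mouse. It fell by 0.95 ± 0.22 on the log2 scale (adjusted p = 0.0262 by edgeR), and the call was lost without mouse 2, 3, 10, 16 or 18 (adjusted p up to 0.0774). In the ketamine-xylazine mice the 4 values were 77.4, 78.5, 91.2 and 140.2 CPM, with a log2 difference of -0.49 that missed the threshold (adjusted p = 0.219). In CA1-like and astrocyte-like nuclei, where the gene was higher, the isoflurane differences of Pcdh7 were -0.48 (adjusted p = 0.0760) and -0.37 (adjusted p = 0.139), and in CA3-like and inhibitory-like nuclei they were 0.01 and -0.04. In the annotation 14 other genes on the same strand overlap Pcdh7, so that its split from them is uncertain.

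Pcdh19 (ENSMUSG00000051323, chrX:133582860-133688987, minus strand) in the same nuclei was 101, 133 and 181 CPM in awake and 60.8, 78.2 and 129 CPM in isoflurane mice. Only mouse 11 of fAD-GA, at 129 CPM, fell within the awake range. It fell by 0.69 ± 0.16 on the log2 scale (adjusted p = 0.0272 by edgeR), a call lost without mouse 2, 3, 4, 10, 16, 18 or 20 (adjusted p up to 0.0913). Among the 4 ketamine-xylazine mice the values were 44.3, 65.3, 72.6 and 82.2 CPM, all below the awake range, and the fall was 1.07 ± 0.20 on the log2 scale (adjusted p = 0.00340). Both contrasts use the same 9 awake mice. Without mice 1 to 4 the isoflurane calls of Pcdh7 and Pcdh19 were lost, at log2 differences of -0.79 and -0.66 (adjusted p = 0.208 and 0.173 by edgeR). Within each of the 4 runs of mouse numbers the isoflurane mean of both genes was below the awake mean. The run 10 to 13 held only 1 isoflurane mouse and the run 18 to 20 only 1 awake mouse.

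**Figure D4:**
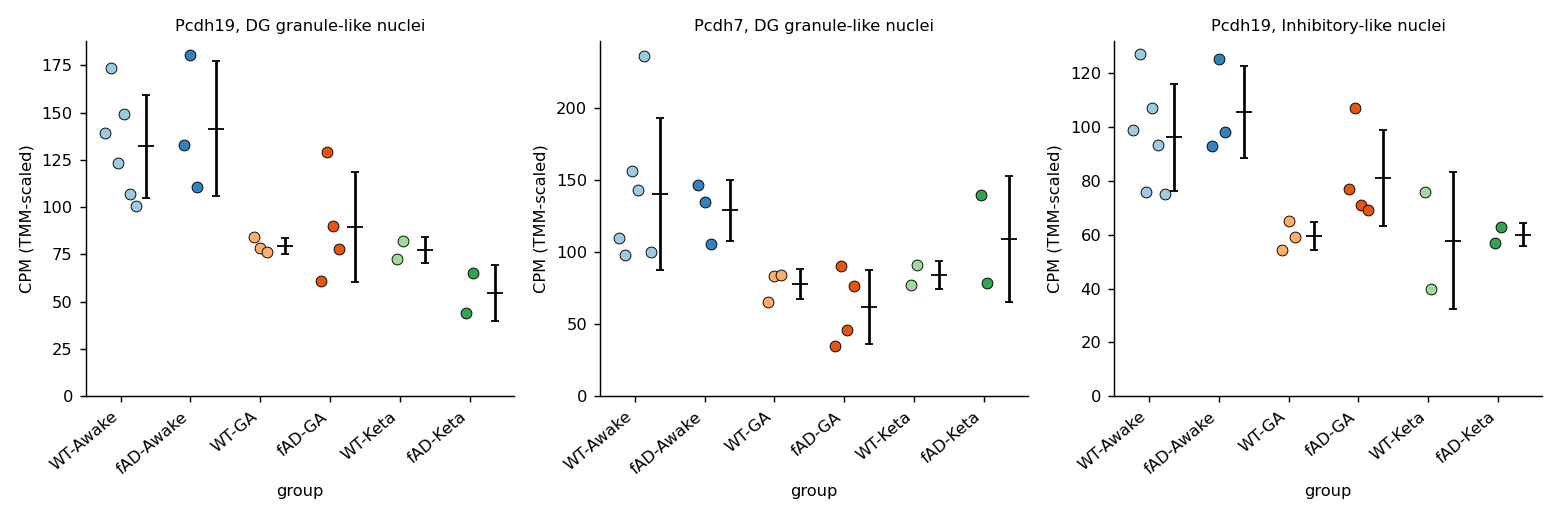
Pcdh19 in dentate granule-like, Pcdh7 in dentate granule-like and Pcdh19 in inhibitory-like nuclei, in CPM (TMM-scaled), 1 point per mouse, by group, with the mean ± SD. In dentate granule-like nuclei the 4 ketamine-xylazine mice stood at 44.3 to 82.2 CPM for Pcdh19, below the awake range of 101 to 181 CPM.

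Over all nuclei 9 of the 11 non-clustered genes tested lay below 0 under isoflurane, with a median log2 difference of -0.26 against -0.0036 for all genes, and 0 were called. Of the 53 clustered genes 26 lay above and 27 below 0 (median -0.02). Within the cluster 17 of 21 Pcdhb genes lay above 0 (median 0.27), 16 of 20 Pcdhg genes below 0 (median -0.14) and 7 of 12 Pcdha genes below 0. Members of a family share a locus, and in part reads, so these counts are descriptions, and no difference between the kinds of genes was tested.

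**Figure D5:**
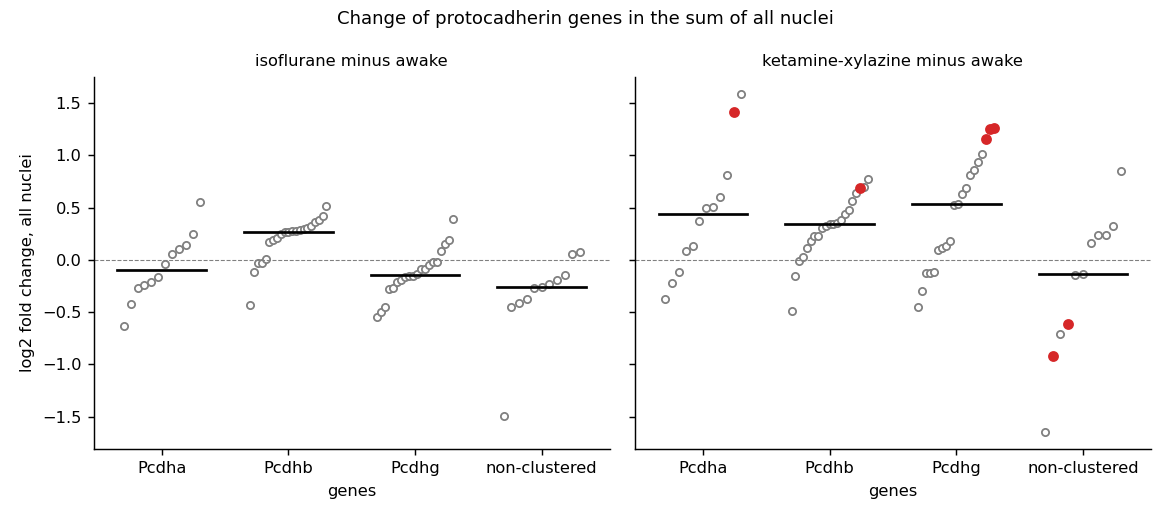
Log2 fold change of each tested Pcdh gene in the sum of all nuclei under isoflurane (left) and ketamine-xylazine (right), both against the same awake mice. Filled red points passed an adjusted p of 0.05 by edgeR, open points did not, and lines are medians, which for Pcdhb were 0.27 and 0.34; 5 clustered genes were called higher and 2 non-clustered genes lower under ketamine-xylazine.

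Several non-clustered genes lay near the threshold under isoflurane. Pcdh10 in astrocyte-like nuclei differed by -0.62 ± 0.19 (adjusted p = 0.0504) and Pcdh19 in inhibitory-like nuclei by -0.53 ± 0.15 (adjusted p = 0.0600). The 3 members with the smallest p in the sum of all nuclei were Pcdhb20 (0.52, adjusted p = 0.102), Pcdh15 (-0.45, 0.117) and Pcdh7 (-0.37, 0.136). Pcdhb20 was 1.79 to 3.18 CPM in awake and 2.65 to 6.29 CPM in isoflurane mice, with overlapping ranges. In CA1-like nuclei edgeR called 0 of 42 members (8.1% of all genes called), with 7 at an unadjusted p under 0.05 (21.1% of all genes), and DESeq2 called 1, Pcdh7 (adjusted p = 0.0460, 10.0% of all genes called). Without mice 11, 14, 17 and 20 edgeR called 2 there, both lower, Pcdh7 (-0.67, adjusted p = 0.0346) and Pcdh11x (-0.77, 0.0481), where 6.7% of all genes were called. In CA3-like, inhibitory-like, OPC-like and microglia-like nuclei edgeR called 0 of 21, 16, 8 and 4 (1.98%, 2.17%, 0.733% and 0.192% of all genes), with 4, 2, 2 and 0 at an unadjusted p under 0.05 (14.4%, 13.1%, 11.0% and 7.98% of all genes). DESeq2 called Pcdh19 in the inhibitory class (adjusted p = 0.0357, 2.82% of all genes called) and Pcdh10 in the astrocyte class (0.0303, 8.01%), and 0 members in the other 3. In the mural/fibroblast-like and Cajal-Retzius-like classes 0 of 2 and 0 of 3 members were called by both tools, 0 had an unadjusted p under 0.05 (4.97% and 7.62% of all genes), and 0.0% of all genes were called by edgeR.

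Under ketamine-xylazine, 9 Pcdh genes changed in at least 1 of the 10 sums tested, where 27.8% of all genes did. In the sum of all nuclei 5 clustered genes rose (Pcdha5, Pcdhb7, Pcdhga8, Pcdhga10 and Pcdhgc3) and 2 non-clustered genes fell (Pcdh19 and Pcdh1), 7 of 64 members in all, where 12.4% of all genes tested were called (6.29% higher, 6.14% lower), so that the count is near the background. By DESeq2 10 members were called there, with Pcdh20, Pcdh8 and Pcdhga7 in addition, where it called 16.6% of all genes. In dentate granule-like nuclei 2 of 39 changed (11.6% of all genes called), in CA3-like nuclei 2 of 21 (7.89%) and in inhibitory-like nuclei 1 of 16 (2.37%). Neither edgeR nor DESeq2 called any (0) in CA1-like, astrocyte-like, oligodendrocyte-like, OPC-like, microglia-like and mural/fibroblast-like nuclei, where 42, 23, 8, 8, 4 and 2 members were tested, 6, 3, 1, 1, 1 and 0 had an unadjusted p under 0.05 (26.8%, 24.7%, 22.2%, 17.1%, 14.7% and 44.5% of all genes), and 9.64%, 7.0%, 3.93%, 1.08%, 0.256% and 31.2% of all genes were called. All 4 ketamine-xylazine mice belong to 1 run of mouse numbers, 25 to 29, in which mouse 29 of WT-Awake was the only awake mouse. With these number runs as a block, which sets the treated mice against that mouse, 0 genes were called, and the labels do not say that the numbers mark a batch. The study's methods describe tissue handling in batches of 4 that held the awake and isoflurane groups, without naming the mice. Mice 1 to 4 and mice 14 to 17 each hold 1 of each of these groups.

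Pcdh19 was the member called in most sums. Over all nuclei it was 62.1, 72.0 and 116 CPM in awake mice and 32.8, 38.1, 45.6 and 50.8 CPM in the 4 ketamine-xylazine mice, all of them below every awake mouse, mouse 29 (62.1 CPM) included. The fall was 0.92 ± 0.19 on the log2 scale (adjusted p = 0.00643 by edgeR, and 0.0532 without mouse 25). Dentate granule-like, CA1-like, CA3-like and inhibitory-like nuclei averaged 23.7%, 15.4%, 6.9% and 4.3% of nuclei in awake mice. In ketamine-xylazine mice they averaged 17.1%, 11.6%, 4.8% and 3.1%, and their part in the fall over all nuclei was not tested. In inhibitory-like nuclei Pcdh19 was 74.9 to 127 CPM in awake mice and 39.7, 57.0, 63.0 and 75.6 CPM in treated mice, and 1 treated mouse overlapped the awake range (fall of 0.79 ± 0.19, adjusted p = 0.0389, lost without mouse 1, 2, 10, 14 or any treated mouse, and 0.0613 without mice 1 to 4). In CA1-like nuclei the difference was -0.58 (adjusted p = 0.0751). The dentate call held without any 1 of the 20 mice (highest adjusted p 0.0457), and mouse 29 stood at 101 CPM there against a treated mean of 66.1 CPM.

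Pcdh1 in the sum of all nuclei was 23.1, 31.6 and 36.9 CPM in awake mice and 19.3, 19.8, 20.5 and 22.7 CPM in treated mice, with no overlap. It fell by 0.61 ± 0.17 on the log2 scale (adjusted p = 0.0250, up to 0.101 without mouse 2 or any treated mouse, and 0.0541 with at least 1000 UMIs per nucleus). In CA3-like nuclei Pcdh1 was 34.5 to 55.2 CPM in awake and 23.2, 23.2, 24.5 and 31.8 CPM in treated mice, again without overlap (fall of 0.73 ± 0.21, adjusted p = 0.0406, lost without mouse 1, 2, 14, 17 or any treated mouse, and 0.0590 with mixed nuclei kept). In mouse 29, which shared the number run, the CA3-like level was 36.2 CPM and the whole-tissue level 23.1 CPM, the lowest of the awake mice. Without mice 1 to 4 neither call remained.

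Pcdh15 in CA3-like nuclei was 67.5, 98.9 and 205 CPM in awake mice and 172, 189, 271 and 276 CPM in treated mice. Mouse 29, at 205 CPM, and fAD-Awake mouse 10, at 183 CPM, lay within the treated range, and the other 7 awake mice lay below it. The gene rose by 0.95 ± 0.26 on the log2 scale (adjusted p = 0.0302 by edgeR, and up to 0.183 without mouse 2, 17, 25, 27 or 28). The call was also lost under a stricter class gate (0.61, adjusted p = 0.166), with mixed nuclei kept (0.0737), without mice 1 to 4 (0.0768) and with the number runs as a block (0.08, adjusted p = 0.985). In OPC-like nuclei, where Pcdh15 was highest, the difference was 0.01.

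Among the clustered genes that rose, Pcdha5 was 1.25, 1.97 and 5.27 CPM in awake mice and 4.32, 5.17, 5.35 and 6.56 CPM in treated mice. Every awake mouse except mouse 29, at 5.27 CPM, lay below the treated mice. The rise was 1.42 on the log2 scale (adjusted p = 0.0185 by edgeR), and against mouse 29 alone the treated mean differed by 0.02. Pcdhga8 was 0.701, 1.13 and 3.33 CPM in awake mice and 1.57, 2.24, 2.73 and 5.80 CPM in treated mice, with mouse 29 again the highest awake mouse (rise of 1.25, adjusted p = 0.0401). With the number runs as a block its difference turned to -0.22.

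Pcdhgc3 was 0.647, 1.72 and 3.25 CPM in awake mice and 2.58, 2.61, 5.59 and 6.60 CPM in treated mice, with overlapping ranges (rise of 1.26, adjusted p = 0.0345). Pcdhga10 rose by 1.15 (adjusted p = 0.049998, just under the threshold) and Pcdhb7 by 0.69 (adjusted p = 0.0467). Pcdhb7 was 2.13 to 4.87 CPM in awake and 4.59 to 8.99 CPM in treated mice, and Pcdhga10 was 0.891 to 2.94 and 2.09 to 4.40 CPM, both with overlap. In dentate granule-like nuclei Pcdhga7 rose by 1.21 (adjusted p = 0.0434), from 0.348 to 1.90 CPM in awake to 2.44 to 4.01 CPM in treated mice without overlap, on 3 to 16 UMIs per treated mouse. By DESeq2 its adjusted p was 0.0623.

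The calls of the clustered genes depended on single mice and on the nuclei counted. Fewer Pcdh genes were called under ketamine-xylazine without mice 1 to 4, and some of those lost were clustered. With at least 1000 UMIs per nucleus the adjusted p of Pcdhgc3, Pcdhga8 and Pcdhga10 was 0.104, 0.0850 and 0.173, with mixed nuclei kept that of Pcdhga10 was 0.114, and under the stricter gate that of Pcdhga7 was 0.0618. Without mice 11, 14, 17 and 20 Pcdha5 was the only one of the 6 still called. That of Pcdha5 was lost without mouse 25 or 27 (adjusted p up to 0.0884) and that of Pcdhgc3 without mouse 2, 14, 17, 25 or 28 (up to 0.229). Pcdhga8 lost its call without mouse 1, 2, 10, 12, 13, 14, 16, 17, 25, 26 or 28 (up to 0.375), and Pcdhga7 without mouse 1, 10, 13, 14, 17 or any treated mouse (up to 0.283). For Pcdhb7 only the fits without mouse 3, 12, 19, 27 or 29 kept the call, and for Pcdhga10 only those without mouse 3, 4, 11, 15, 19 or 29 did (up to 0.300 and 0.238).

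Nuclei of the mural/fibroblast-like class, where summed Pcdhg and Pcdhgc3 were highest, made up 0.175% to 2.75% of nuclei in awake and 2.08% to 9.64% in ketamine-xylazine mice. Without the mural/fibroblast-, endothelial- and choroid/ependyma-like nuclei, 4 Pcdh genes were called in the sum of all nuclei in place of 7, where 12.6% in place of 12.4% of all genes were called. Pcdh19, Pcdh1 and Pcdha5 remained called (adjusted p = 0.00532, 0.0260 and 0.0350), Pcdh20 passed the threshold (0.0459), and Pcdhb7, Pcdhga8, Pcdhga10 and Pcdhgc3 were at 0.0508, 0.0724, 0.115 and 0.0780. With these nuclei included, Pcdhb7 and Pcdhga10 had been just under the threshold, and the part of these nuclei in the rises was not tested. The summed mural and fibroblast markers within dentate granule-like nuclei were 2.99 to 66.3 CPM in awake and 42.4 to 121.6 CPM in treated mice, and their part in the Pcdhga7 result was not tested.

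Of the 53 clustered genes tested in all nuclei, 42 lay above 0 under ketamine-xylazine (median 0.35, against -0.0254 for all genes), with 18 of 21 Pcdhb, 15 of 20 Pcdhg and 9 of 12 Pcdha genes. In mouse 29, the awake mouse of the same number run, summed Pcdha, 26.1 CPM, and Pcdhg, 61.1 CPM, were above the treated means of 23.6 and 59.6 CPM. Its Pcdhb, 50.6 CPM, was below all 4 treated mice (55.2 to 72.3 CPM), and its clustered sum, 137.8 CPM, lay within the treated range of 128 to 161 CPM. Of the 11 non-clustered genes 5 lay above and 6 below 0. Pcdh8 and Pcdh20 did not pass the test, at -1.65 ± 0.64 (adjusted p = 0.0945) and -0.71 ± 0.23 (adjusted p = 0.0530), while Pcdh9 (0.24) and Pcdh15 (0.32) lay above 0.

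For genotype, 0 Pcdh genes were called in any sum by edgeR, in fAD against WT or in the interaction of genotype with isoflurane, and 0.0% of all genes were called in either. At an unadjusted p under 0.05 there were 6 of 227 pairs of gene and sum for fAD against WT and 6 of 230 for the interaction, beside 2.53% and 3.19% of the pairs over all genes, and DESeq2 called 0 Pcdh genes in both. In the sum of all nuclei the 3 members with the smallest p for fAD against WT were Pcdh20, Pcdhb8 and Pcdhb20. Pcdh20 was 12.7 ± 3.0 CPM in awake WT mice and 14.7 ± 0.8 CPM in awake fAD mice. Under isoflurane it was 12.8 ± 2.6 CPM in WT and 15.9 ± 7.3 CPM in fAD mice, and under ketamine-xylazine 6.14 and 6.48 CPM in the 2 WT and 10.3 and 11.9 CPM in the 2 fAD mice. The log2 difference was 0.45 ± 0.18 (unadjusted p = 0.0210, adjusted p = 1.0), with overlapping ranges in the awake and in the isoflurane groups. Without mice 11, 14, 17 and 20, 0 Pcdh genes were called in any sum by edgeR for fAD against WT and 0 for the interaction (in all nuclei 1 of 62 at an unadjusted p under 0.05 in each, as had 5.08% and 1.85% of all genes, and DESeq2 was not run). Of all genes 0.00505% were then called for fAD against WT in all nuclei, which is 1 gene, Prnp, by which these mice were chosen, and 0.0% for the interaction, and Pcdh20 differed by 0.56 (adjusted p = 0.942).

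Pcdhb20 stood at 2.34 ± 0.39 CPM in WT-Awake and 3.04 ± 0.21 in fAD-Awake mice (difference over all states 0.39, unadjusted p = 0.0362), and Pcdhb8 was counted at 0.17 to 0.51 CPM on average in every group. For the interaction the smallest p was that of Pcdhga7, which was 2.23 ± 0.57 CPM awake and 1.37 ± 0.12 CPM under isoflurane in WT mice, and 1.76 ± 0.42 CPM and 2.13 ± 0.28 CPM in the same states in fAD mice (interaction 0.97 ± 0.37, unadjusted p = 0.0181, adjusted p = 0.861). Pcdhga1 (0.70) and Pcdhgc5 (-0.61) followed, both with an adjusted p of 0.861. A genotype difference of the sizes measured here was thus not separated from the spread between mice.

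The regulators and partners of protocadherins were counted from 4 lists. Of 18 genes for cohesin, CTCF and chromatin at the clustered locus, all tested in the sum of all nuclei, 5 rose and 1 fell under ketamine-xylazine, where 6.29% and 6.14% of all genes were called. Ctcf, which binds the variable promoters, rose by 0.34 in all nuclei (adjusted p = 0.0203) and by 0.50 in CA1-like nuclei (0.00580), the cohesin genes Rad21, Smc1a and Stag2 rose by 0.68, 0.58 and 0.36, and Smchd1, a silencer of the cluster, rose by 0.36. The DNA methyltransferase gene Dnmt3b fell by 0.79 on the log2 scale. In mural/fibroblast-like nuclei, which made up 0.175% to 2.75% of nuclei in awake and 2.08% to 9.64% in treated mice and in which 31.2% of all genes were called, 6 of the 15 listed genes tested rose and 2 fell. Their part in the counts over all nuclei was not tested, and all 4 treated mice belong to 1 number run. Under isoflurane 0 of the 18 were called in all nuclei (5.83% of all genes) and 1 in a class, Pds5b, which fell by 0.56 on the log2 scale in astrocyte-like nuclei (7.35% of all genes called). List medians in all nuclei were 0.08 under ketamine-xylazine and -0.12 under isoflurane, beside -0.0254 and -0.0036 for all genes.

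Of 22 intracellular effectors and partners 4 changed in at least 1 sum under isoflurane and 9 under ketamine-xylazine, beside 15.5% and 27.8% of all genes. Prkca, a kinase gene, rose by 1.36 in astrocyte-like nuclei under isoflurane (adjusted p = 0.000149, 7.35% of all genes called), and there Abi2, Nlgn2 and Adam10, the sheddase of protocadherins, fell by 0.53, 1.00 and 0.47 on the log2 scale. Of 23 cadherin genes, taken as every symbol of Cdh followed by digits, 9 changed in at least 1 sum under isoflurane and 8 under ketamine-xylazine. Cdh10 in dentate granule-like nuclei fell by 1.70 under isoflurane (adjusted p = 0.000344) and by 1.49 under ketamine-xylazine (0.00176), on the log2 scale and against the same awake mice. Of 12 large atypical cadherins 3 changed under isoflurane and 4 under ketamine-xylazine, and Fat3 fell by 0.88 and 0.76 in dentate granule-like nuclei. Of all genes in dentate granule-like nuclei 2.69% were called under isoflurane and 11.6% under ketamine-xylazine.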

How the data were processed

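UMI counts were deposited by the authors as 1 gene-by-nucleus matrix per mouse, which per the labels came from Cell Ranger 5.0.0 on mm10; the study's methods add intron counting, removal of free RNA and doublet calling. The matrices held raw whole-number counts and no nucleus with under 200 genes. Mixed nuclei were set aside and classes were assigned by marker likelihood (odds of at least 100), and counts were summed per mouse for all nuclei and for each class with at least 20 nuclei. Sums were tested with edgeR 4.0.16 in R 4.3.3 (TMM, filterByExpr, quasi-likelihood test on group means of all 20 mice, Benjamini-Hochberg over all genes tested in the sum, threshold 0.05); DESeq2 1.42.0 was an alternative. Scripts were tested on simulated counts, where 53% of 2-fold changes and 94% of 3-fold changes were called for isoflurane in all nuclei (20063 genes), and 20% and 88% for ketamine-xylazine. Of the calls 2.65% and 6.09% were false. For the class fit of dentate granule-like nuclei (4000 genes) 9% of 2-fold and 39% of 3-fold changes were called. Within a simulation all genes had the same dispersion, and low-count genes were not rated apart. Levels are CPM. Class levels use plain totals, and treatment values and levels per kilobase use TMM-scaled totals. Named were all non-clustered genes, the 3 clustered genes per family with most UMIs, every called Pcdh gene and the 3 smallest p per contrast. The members and lists were chosen with earlier results of these data known. Mice are the replicates, and p-values for treatment and genotype set a difference against the spread between mice. In the class fit the mouse was a block, and 1 common dispersion served all genes before the quasi-likelihood test.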

Additional observations from a re-analysis of the deposited data

Results flagged for a closer look

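In 42 groups of 4 to 10 mice checked for a mouse apart from its group, 4 were found, and chance flags about 1 in 20 groups. Only WT-Awake and fAD-GA hold at least 4 mice, so mice of the other groups were not checked. Pcdhga8 in all nuclei of WT-Awake mouse 29 was 3.33 CPM, the highest of its group, and Pcdh15 in CA3-like nuclei of the same mouse was 205 CPM. This is the awake mouse that shares its number run with the ketamine-xylazine mice. Pcdh19 in all nuclei of WT-Awake mouse 12 was 116 CPM, the highest of its group. The summed CPM of the non-clustered genes in WT-Awake mouse 1 was 4012, the lowest of its group.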

How the results depend on the processing

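The number of Pcdh genes called in at least 1 sum was 3 for isoflurane and 9 for ketamine-xylazine. It was 5 for isoflurane with mice 1 to 4 as a block, while ketamine-xylazine gave 4 without mice 1 to 4, 3 without mice 11, 14, 17 and 20 and 0 with the number runs as a block. These counts cover only the sums tested in the reported fit. The choroid/ependyma-like sum is not counted, since the refit without mice 11, 14, 17 and 20 left 1 mouse in a group there. In the sum of all nuclei 4 in place of 7 Pcdh genes were called for ketamine-xylazine without the mural/fibroblast-, endothelial- and choroid/ependyma-like nuclei. Without the gene filter fAD against WT gave 1 gene and the class fit 66 in place of 17. Leaving out each mouse in turn gave 1 to 5 genes for isoflurane (1 without mouse 10, 16 or 18, 5 without mouse 11 or 17), 1 to 10 for ketamine-xylazine (1 without mouse 25, 2 without mouse 28, 3 to 5 without mouse 1, 2, 13, 14, 17, 26 or 27), 0 to 0 for fAD against WT, 0 to 0 for the interaction and 16 to 21 for the classes, and it moved the clustered sum from 123.7 to 127.4 CPM and the non-clustered sum from 4890.5 to 5042.8 CPM, around 125.6 and 4968 CPM. Pcdhga8 under ketamine-xylazine turned from 1.25 to -0.22 with the number runs as a block. The cause was not tested. Pcdh15 in all nuclei passed the threshold for isoflurane without mouse 17 (adjusted p = 0.0437). Without mice 11, 14, 17 and 20 the adjusted p of Pcdh11x in astrocyte-like nuclei was 0.138, and under ketamine-xylazine it was 0.0814 for Pcdh15 and 0.0690 for Pcdh1 in CA3-like nuclei and 0.0630 for Pcdh19 in inhibitory-like nuclei. The block of mice 1 to 4 and leaving out mice 11, 14, 17 and 20 or the named nuclei were chosen after seeing the data. DESeq2 was not run for the class fit. The groups share no mouse number, so that mice were not paired one to one, and the number runs and mice 1 to 4 stood in for a block. Low counts, such as 3 to 16 UMIs per treated mouse for Pcdhga7 in dentate granule-like nuclei, limit the precision of the clustered genes.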
